A study of Homo sapiens with 4 samples.

Results

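Genes that mark trophoblast or amnion, 10 in all, were followed in RNA-seq counts of human embryonic stem cells (ESCs): CDX2, GATA2, GATA3, TFAP2A, TFAP2C, KRT7, CGA, TP63, HAND1 and ENPEP. They were taken by name, and all 10 of the 10 symbols matched 1 of the 60564 gene identifiers counted. The cells were Elf1, a naïve human ESC line derived from an early embryo, so every value below is from 1 cell line. In the 2-D group the cells grew adherent on plastic coated with Matrigel, a basement membrane extract. In the 3-D group single cells were enclosed in PEG-8-SH/PEG-8-Acr, a self-assembling polyethylene glycol hydrogel, and kept there for 21 days. Both groups received the same ESC expansion medium, which per the methods held FGF2, the GSK3 inhibitor CHIR99021, a MEK inhibitor written there as PD03296501, and LIF. The cells had been kept on mouse feeder cells and were moved to Matrigel before enclosure. Each group had 2 independent biological replicates. The 2-D cells were passaged at intervals of days and the scaffold cultures were not passaged, so dimension, material and time in culture cannot be told apart.

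Trophectoderm is the outer layer of the blastocyst. It gives rise to the cytotrophoblast of the placenta, which fuses into the hormone-producing syncytiotrophoblast and also forms the invasive extravillous trophoblast. Amnion is the epithelium that later separates from the epiblast and encloses the embryo. GATA2, GATA3, TFAP2A and TFAP2C are transcription factors that act together when human cells enter the trophoblast lineage, and several of them are also switched on in amnion, where BMP signals are the known inducer. Human naïve ESCs are known for their ability to form trophoblast, and TFAP2C has another role in them as a regulator of naïve pluripotency.

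Total counts were 30114220 and 33833778 in 2-D and 18276147 and 21154409 in 3-D, and each value below rests on that depth. Levels are given as CPM, the usual unit of counts relative to library size, here with edgeR's TMM scaling, and levels of different genes are compared only as CPM per kilobase of annotated exon. Fold changes put 3-D over 2-D, each with its standard error (SE). A gene is called when its p from the quasi-likelihood test of edgeR, adjusted by Benjamini-Hochberg (BH) over the 22555 genes that passed the filter on low counts, is below 0.05. Core pluripotency genes were present, with POU5F1 at 2230 to 3982 counts and NANOG at 3649 to 6859 counts in a library. Of the naïve markers, DPPA3 had 103 to 229 counts and DNMT3L 261 to 569, while KLF17 had 16 to 29 and DPPA5 0 to 4. POU5F1 has 6 near-identical copies on alternate contigs of hg38 and DPPA3 has 1 elsewhere, so their counts are uncertain. Of 9 tested naïve markers KLF5 was called higher in 3-D, of 8 primed markers SFRP2, THY1 and SALL2, and of 6 core genes none (3 had an unadjusted p below 0.05 by edgeR). Over all tested genes 7.9% were called, 4.54% as higher in 3-D.

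One of the 10 markers was abundant, 7 were low, and 2 were at or next to 0. TFAP2C had a level of 31.6 CPM per kilobase as the mean of the 4 libraries, above 94.1% of the tested genes. KRT7 and HAND1 came next at 0.583 and 0.564 CPM per kilobase, and 20.5% of the tested genes lay below KRT7. TFAP2C therefore stood 54.2 times above the gene that followed it, and it made up 93.5% to 95.3% of the summed level of the 10 markers in each library. The order then ran through ENPEP (0.250), GATA2 (0.191), GATA3 and CDX2 (0.129 each), TFAP2A (0.0894), TP63 (0.0026) and CGA (0). The ranges over the 4 libraries did not overlap between TFAP2C and KRT7, between HAND1 and ENPEP, or between TFAP2A and TP63. Every other pair of neighbours in this order overlapped. These ranges hold no error of the annotated exon lengths. The order of HAND1 and ENPEP rests on those lengths, 1701 and 7720 bases. Apart from TFAP2C, 9 markers had fewer than 100 counts in every library.

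**Figure D1:**
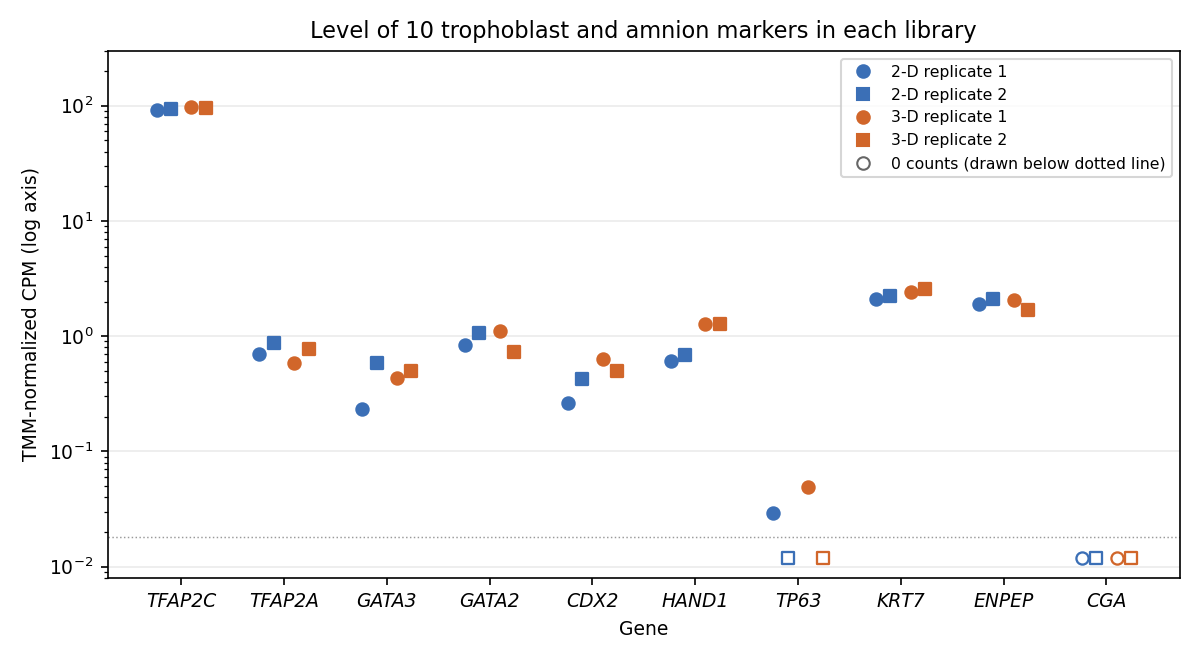
TMM-normalized CPM on a log axis for each of the 10 markers (x axis) in the 2-D (blue) and 3-D (orange) libraries, with a circle for replicate 1 and a square for replicate 2, and open points below the dotted line for 0 counts. TFAP2C lies between 92.6 and 96.7 CPM, the HAND1 points of 3-D lie above those of 2-D, and CGA has only open points.

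TFAP2C and TFAP2A encode AP-2γ and AP-2α, factors that bind the same GC-rich palindrome. TFAP2C (ENSG00000087510.7, chromosome 20, from 56629306 to 56639283, hg38) had 3189 and 2912 counts in 2-D and 1987 and 1718 in 3-D, which gave 92.6 and 94.5 CPM in 2-D and 96.7 and 95.8 CPM in 3-D. Both 3-D libraries lay slightly above both 2-D libraries. The log2 fold change was 0.04 (SE 0.03, BH-adjusted p = 0.525 by edgeR), with a 95% interval of 0.980 to 1.08 fold. With library size as the only scaling, which shifted the median of all genes from −0.000135 to −0.065, the value was −0.023, so its direction depends on the scaling.

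TFAP2A was far lower. It (ENSG00000137203.12) lies on chromosome 6 from 10393186 to 10419659 and had 24 and 27 counts in 2-D and 12 and 14 in 3-D. Its CPM of 0.697 and 0.876 in 2-D and 0.584 and 0.781 in 3-D overlapped between the groups, and its log2 fold change was −0.21 (SE 0.35, BH-adjusted p = 0.806 by edgeR), with a 95% interval of 0.508 to 1.47 fold. Per kilobase, TFAP2C stood 295 to 454 times above TFAP2A in a library. The antisense gene TFAP2A-AS2 shares 941 exon bases with TFAP2A and had about as many counts, 31 and 31 in 2-D and 15 and 14 in 3-D. The strand setting of the counting is not given in the sources used here, so reads of these 2 genes cannot be told apart where they overlap.

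GATA2 and GATA3 encode zinc finger factors, and GATA3 is among the earliest to appear in human trophectoderm. GATA3 (ENSG00000107485.18, chromosome 10, from 8045378 to 8075198) had 8 and 18 counts in 2-D and 9 in each 3-D library, or 0.232 and 0.584 CPM in 2-D and 0.438 and 0.502 CPM in 3-D. Both 3-D values fell between the 2-D values. GATA2 (ENSG00000179348.11, chromosome 3, from 128479427 to 128493201) had 29 and 33 counts in 2-D and 23 and 13 in 3-D, or 0.842 and 1.07 CPM in 2-D and 1.12 and 0.725 CPM in 3-D. Here the 2-D values fell between the 3-D values. The log2 fold changes were 0.22 for GATA3 and −0.03 for GATA2 (SE 0.52 and 0.33, BH-adjusted p = 0.862 and 0.975 by edgeR). Neither held its sign: GATA3 was at −0.32 without 2-D replicate 1 and GATA2 at 0.15 without 2-D replicate 2 and at 0.23 without 3-D replicate 2. At this depth the 95% intervals run from 0.538 to 2.54 fold for GATA3 and from 0.599 to 1.6 fold for GATA2. The antisense genes GATA3-AS1 and GATA2-AS1 had at most 1 and 3 counts in a library.

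CDX2 encodes a homeobox factor of trophectoderm that also patterns the hindgut. It (ENSG00000165556.10) lies on chromosome 13 from 27960918 to 27969315 and had 9 and 13 counts in 2-D and 13 and 9 in 3-D. Scaled to depth these were 0.261 and 0.422 CPM in 2-D and 0.633 and 0.502 CPM in 3-D, so both 3-D libraries lay above both 2-D libraries. The log2 fold change of 0.75 did not pass the test (SE 0.45, BH-adjusted p = 0.384 by edgeR), and its 95% interval of 0.852 to 3.32 fold includes no change. Leaving out 1 library moved it to between 0.43 (without 2-D replicate 1) and 1.11 (without 2-D replicate 2).

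HAND1 was the marker nearest to a call. It encodes a basic helix-loop-helix factor of trophoblast and amnion that is also used in extraembryonic and cardiac mesoderm. It (ENSG00000113196.3) lies on chromosome 5 from 154474972 to 154478227. Its counts were 21 and 21 in 2-D and 26 and 23 in 3-D, although the 3-D libraries were shallower. In CPM it stood at 0.610 and 0.681 in 2-D and at 1.27 and 1.28 in 3-D, so the groups were apart and the replicates within each were close. The mean was 0.646 ± 0.0507 CPM in 2-D and 1.27 ± 0.0127 CPM in 3-D (SD, n = 2 each). With 21 to 26 counts in a library, an SD of 2 libraries is a poor measure of the spread. The log2 fold change was 0.98 (SE 0.30, BH-adjusted p = 0.0695 by edgeR), a 1.97-fold difference with a 95% interval of 1.25 to 3.10 fold. An exact permutation test of 2 libraries against 2 cannot give a two-sided p below 0.333.

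**Figure D2:**
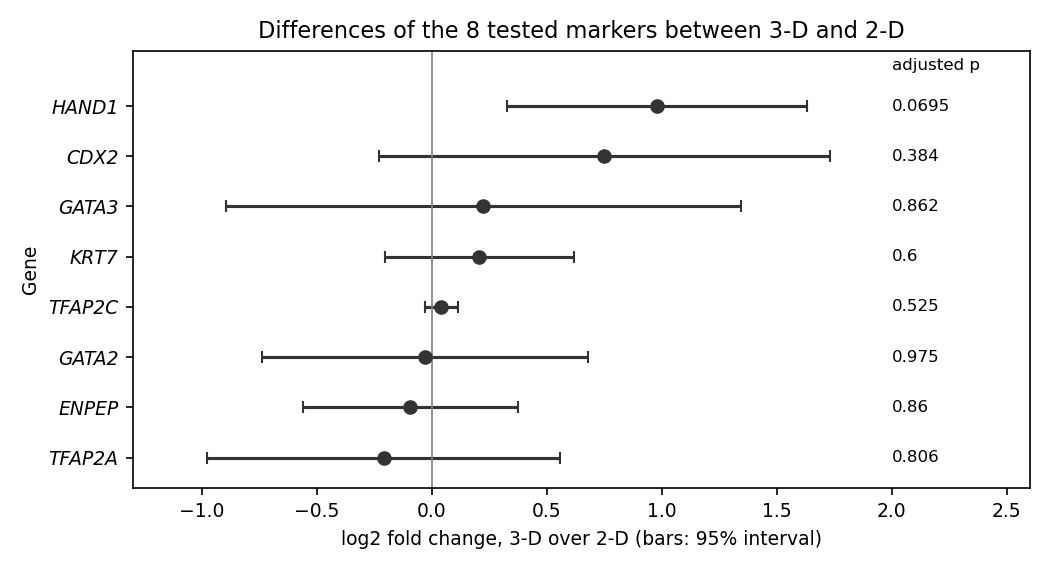
Log2 fold change of 3-D over 2-D (x axis) for each of the 8 tested markers, with bars for the 95% interval and the BH-adjusted p by edgeR at the right. The interval of HAND1 lies above 0 and those of the other 7 include 0, and all 8 adjusted p are above 0.05.

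Whether HAND1 was called depended on the procedure, while the size of the difference varied little. Over 14 alternatives its log2 fold change ran from 0.90 to 1.06. edgeR's likelihood ratio test gave it a Benjamini-Hochberg adjusted p of 0.0462, the quasi-likelihood test with no filter on low counts 0.0378, and the same test on genes with at least 10 counts in every library 0.0429. Of all genes these called 5.05%, 5.89% and 8.95%, with 2.89%, 3.22% and 4.73% as higher in 3-D. DESeq2 gave HAND1 an unadjusted p of 0.0879 and no adjusted p, and without its independent filtering, an alternative added after seeing the data, an adjusted p of 1.0. Leaving out a library gave adjusted p of 0.147 to 0.338 with edgeR's quasi-likelihood test.

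**Figure D3:**
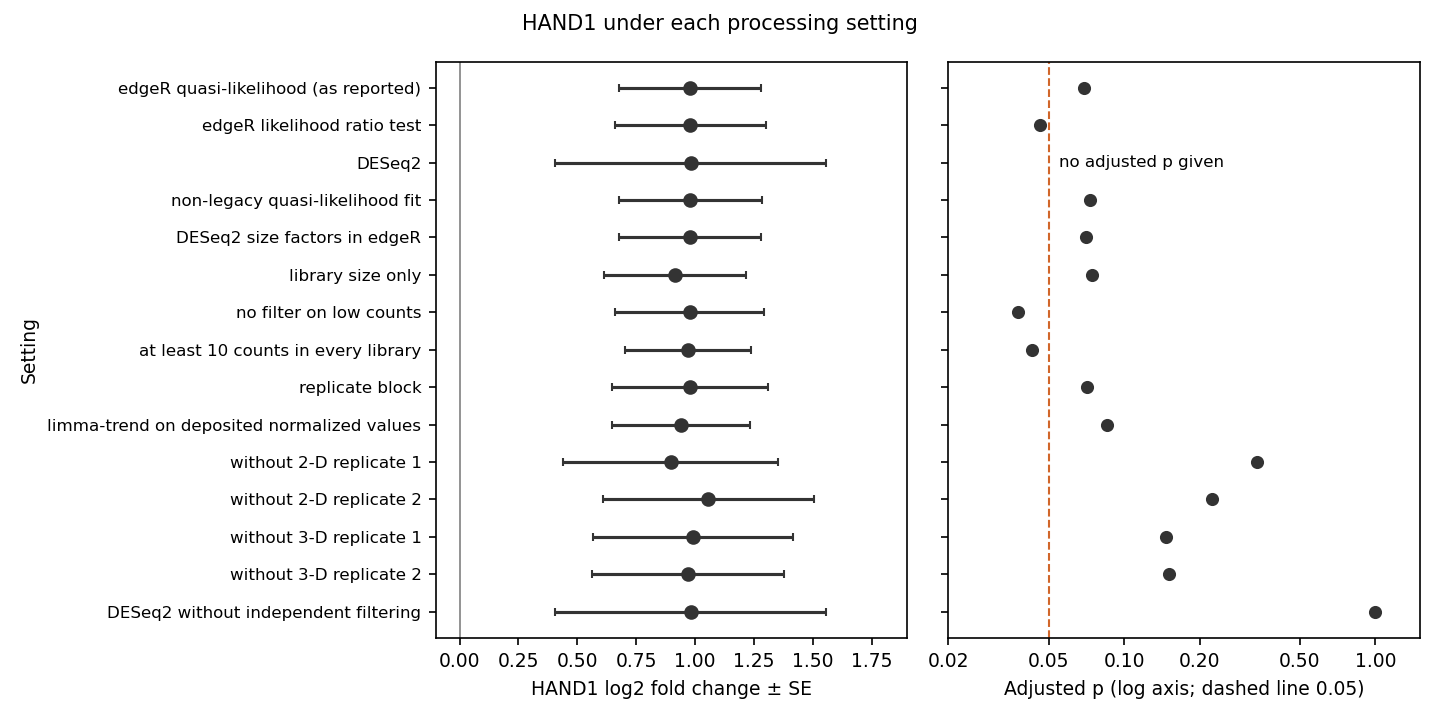
Log2 fold change of HAND1 with its standard error (left) and its adjusted p on a log axis (right) under the reported procedure and 14 alternatives (y axis), with a dashed line at 0.05. The fold changes lie between 0.90 and 1.06 and 3 of the adjusted p lie below the line, while DESeq2 gave none.

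The bases before the HAND1 start are shown because HAND1 is the marker whose groups were farthest apart. The 250 bases upstream of its RefSeq start (GRCh38.p14, chr5:154478228-154478477, minus strand) read, from 5′ to 3′, with the AP-2 palindrome GCCNNNGGC in capitals:
HAND1: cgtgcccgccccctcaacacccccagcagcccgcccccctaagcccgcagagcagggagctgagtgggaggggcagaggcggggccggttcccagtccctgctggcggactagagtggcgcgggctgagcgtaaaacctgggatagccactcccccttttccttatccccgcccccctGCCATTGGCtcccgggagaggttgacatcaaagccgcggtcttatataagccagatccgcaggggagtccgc
The palindrome begins 72 bases before the start. It was found in 19.8% of the 35116 upstream windows of the same length in the RefSeq table.

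Markers of other cell types that use HAND1 or could be present are given beside it. Of 8 mesoderm markers 5 were tested and 0 called (edgeR's quasi-likelihood test; 2 had an unadjusted p below 0.05), and their summed level was 51.0 to 51.2 CPM per kilobase in 2-D and 54.0 to 54.5 in 3-D. MESP1, HAND2 and FOXF1 had at most 3 counts in a library. Of 7 fibroblast markers 5 were tested and 3 were called, beside 7.9% of all tested genes. COL1A1, COL3A1 and POSTN were higher in 3-D by 0.29, 0.73 and 0.65 on the log2 scale (BH-adjusted p = 7.79e-04, 7.04e-04 and 0.0181 by edgeR). COL1A2, the most abundant of the 7 at 29.3 CPM per kilobase, was at −0.04 (BH-adjusted p = 0.649 by edgeR). PDGFRA was at 0.30 (BH-adjusted p = 0.662 by edgeR). DCN and LUM were not tested, with 2 to 6 and 3 to 17 counts in a library. The summed level of the fibroblast list was 44.9 to 45.6 CPM per kilobase in 2-D and 46.6 to 51.4 in 3-D. Of 6 endoderm markers 4 were tested and 0 called (1, GATA6, had an unadjusted p below 0.05), with a summed level of 2.68 to 2.80 CPM per kilobase in 2-D and 3.09 to 3.18 in 3-D. Of 8 markers of neural and surface ectoderm 3 were tested and 0 called (0 also at an unadjusted p below 0.05). Their summed level was 105 to 106 CPM per kilobase in 2-D and 109 to 110.4 in 3-D, with the surface ectoderm keratin KRT14 at 0. NES alone had 106 CPM per kilobase as the mean of the 4 libraries and so carried most of this sum. In the mesoderm list KDR, MIXL1 and TBXT had 23.8, 16.5 and 8.93, and in the endoderm list GATA4 had 1.14. No marker of the mesoderm, fibroblast and endoderm lists was at 0 in every library. The part of these cell types in the HAND1 difference was not tested, and in bulk RNA more cells of a type and more RNA per cell cannot be told apart.

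KRT7 and ENPEP are proteins of the trophoblast cell rather than regulators. KRT7 is a keratin of simple epithelia and a standard stain for trophoblast. It (ENSG00000135480.16) lies on chromosome 12 from 52232520 to 52252186 and had 72 and 69 counts in 2-D and 50 and 46 in 3-D, or 2.09 and 2.24 CPM in 2-D and 2.43 and 2.57 CPM in 3-D. Both 3-D libraries lay above both 2-D libraries, by less than the test could separate, with a log2 fold change of 0.21 (SE 0.19, BH-adjusted p = 0.60 by edgeR) and a 95% interval of 0.869 to 1.53 fold. KRT7-AS, an antisense gene that shares 282 exon bases with KRT7, had 12 and 13 counts in 2-D and 20 and 9 in 3-D. The caution on strand given for TFAP2A holds for KRT7 too.

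ENPEP encodes glutamyl aminopeptidase, a surface enzyme that cleaves angiotensin and has been used to sort trophoblast progenitors. It (ENSG00000138792.10) lies on chromosome 4 from 110365733 to 110565285 and had 65 and 65 counts in 2-D and 42 and 30 in 3-D. Its CPM were 1.89 and 2.1 in 2-D and 2.04 and 1.67 in 3-D, so the groups overlapped. The log2 fold change was −0.09 (SE 0.21, BH-adjusted p = 0.860 by edgeR), and it was 0.04 without 3-D replicate 2. Its 95% interval runs from 0.678 to 1.29 fold. The pseudogene ZNF969P, which lies inside the ENPEP gene and shares no exon base with it, had 15 to 29 counts in a library.

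TP63 and CGA did not pass the filter on low counts and were not tested. TP63 encodes p63, a transcription factor that marks proliferating cytotrophoblast and the basal cells of stratified epithelia. It (ENSG00000073282.13) lies on chromosome 3 from 189631389 to 189897276 and had 1 and 0 counts in 2-D and 1 and 0 in 3-D. Counts of a whole gene do not separate its isoforms.

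CGA encodes the α subunit shared by chorionic gonadotropin and the pituitary glycoprotein hormones, and in the placenta it is made by the syncytiotrophoblast. It (ENSG00000135346.8) lies on chromosome 6 from 87085498 to 87095106 and had 0 counts in each of the 4 libraries. A count of 0 allows a level of up to 0.0871 and 0.0974 CPM in the 2-D libraries and 0.146 and 0.167 CPM in the 3-D libraries, taking 3 counts per library as the limit and counting error alone. CGA was not detectable at this depth in either condition. Of 7 β subunit genes for hormones that share it, 1 was tested. This was LHB, the luteinizing hormone subunit, with 21 and 20 counts in 2-D and 12 and 15 in 3-D, a level of 1.06 CPM per kilobase and a log2 fold change of 0.16 (SE 0.36, BH-adjusted p = 0.860 by edgeR). The chorionic gonadotropin subunits CGB3, CGB5, CGB7 and CGB8 had 0 to 10 counts in a library, TSHB had 0 to 2, and FSHB was at 0 in all 4. CGB3, CGB5 and CGB8 have near-identical copies, so their counts are uncertain.

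The CGA promoter is shown as that of the marker with no counts, since its control elements are textbook material. The 250 bases upstream of its RefSeq start (GRCh38.p14, chr6:87095107-87095356, minus strand) read, from 5′ to 3′, with the GATA motif AGATAA, the cAMP response element TGACGTCA and the TATA motif TATAAA in capitals:
CGA: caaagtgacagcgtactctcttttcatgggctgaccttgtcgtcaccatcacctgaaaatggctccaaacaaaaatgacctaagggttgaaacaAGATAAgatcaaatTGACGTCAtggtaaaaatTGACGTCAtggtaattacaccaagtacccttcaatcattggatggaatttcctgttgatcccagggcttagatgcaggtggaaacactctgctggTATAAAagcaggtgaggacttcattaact
The cAMP response element begins 142 and again 124 bases before the start, the GATA motif 156 bases and the TATA motif 29 bases before it. A cAMP response element was found in 1.65% of the 35116 windows, a GATA motif in 9.17% and a TATA motif in 10.7%. Both strands were searched for each motif, and these 4 matches did not overlap.

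The same search was made over the markers that have an entry. RefSeq's table held 15 windows for 8 of the 10 markers, with none for TFAP2C and KRT7. The AP-2 palindrome was in 7 windows of 4 markers (GATA2, GATA3, HAND1 and ENPEP), the TATA motif in 4 windows of 4 markers (GATA3, TFAP2A, CGA and ENPEP), the GATA motif in those of CDX2 and CGA, and the cAMP response element in that of CGA. Over all 35116 windows the shares with a match were 19.8%, 10.7%, 9.17% and 1.65% in the same order of motifs. Some markers have several windows, and the difference from these shares was not tested. These are matches of letters only, with no measurement of binding.

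Across the whole table the quasi-likelihood test called 7.9% at an adjusted p below 0.05, 4.54% as higher and 3.36% as lower in 3-D. Of the 8 tested markers it called 0, and 1 (HAND1) had an unadjusted p below 0.05, which was true of 21.3% of all tested genes. The likelihood ratio test called 1, with 5.05% of all genes called. The quasi-likelihood test also called 1 with no filter on low counts (9 markers tested, 5.89% of all genes called). It called 1 as well with at least 10 counts in every library (6 markers tested, 8.95% called). Limma called 0 with 6.83% of all genes called. DESeq2 called 0 with 8.42% called but gave an adjusted p to TFAP2C alone of the 8. The count was also 0 under the non-legacy fit, DESeq2's size factors, library size only and the replicate block, which called 7.76%, 7.71%, 10.6% and 9.61% of all genes, and under DESeq2 without independent filtering, which called 1.32%. Leaving out replicate 1 or 2 of 2-D or replicate 1 or 2 of 3-D gave 0 again, with 5.22%, 4.27%, 10.7% and 9.74% of all genes called. With so few genes, a count of 0 or 1 is close to the background share. The log2 fold changes were above 0 in 5 and below 0 in 3 of the 8, with a median of 0.12 beside −0.000135 for all tested genes. In 4 of the 8 (TFAP2C, KRT7, HAND1 and CDX2) both 3-D libraries lay above both 2-D libraries, and in 0 the reverse held. Over all tested genes 50.5% had groups that did not overlap, 25.4% with 3-D above and 25.1% with 2-D above.

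The summed level of the 9 markers other than TFAP2C was 1.53 and 1.85 CPM per kilobase in 2-D and 2.23 and 2.15 in 3-D. HAND1 made up 21.7% to 23.5% of that sum in 2-D and 33.3% to 35.2% in 3-D. Without HAND1 the sums were 1.17 and 1.45 in 2-D and 1.49 and 1.39 in 3-D, which overlapped.

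Other genes of the same lineages and of the signals that act on them were read from 7 lists with 99 genes that are not among the 10 markers. Of these 99, 64 were tested and 7 were called, all higher in 3-D, which is 10.9% of those tested beside 7.9% of all tested genes. Their median log2 fold change was 0.05. The 7 genes were KRT8, PEG10, MMP2, TCF7L2, BMP4, TEAD2 and AMOTL2, with differences between 0.12 and 0.24 on the log2 scale. The count was 1 (TEAD2) without 2-D replicate 2 and 4 without 2-D replicate 1, while scaling by library size alone gave 2 higher (TEAD2 and TCF7L2) and 5 lower (CTSV, SLC7A2, SMAD6, SMAD7 and YAP1). BMP4, PEG10 and AMOTL2 were called neither by DESeq2 nor by edgeR's likelihood ratio test, KRT8 was not called by the likelihood ratio test, and TCF7L2 was not called by DESeq2.

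Of 15 early trophectoderm genes 11 were tested and KRT8 was called. KRT8, a keratin of simple epithelia that ESCs also express, had 607 ± 9.0 CPM in 2-D and 672 ± 30.9 CPM in 3-D (SD, n = 2 each), a log2 fold change of 0.15 (SE 0.04, BH-adjusted p = 0.0224 by edgeR). The median of the 11 was 0.06, with 7 above 0 and 4 below. SLC7A2 was at −0.20 (SE 0.07, BH-adjusted p = 0.0848 by edgeR) and ABCG2 at −0.18 (SE 0.08, BH-adjusted p = 0.218 by edgeR). For both the 2-D libraries lay above the 3-D libraries. VGLL1, a TEAD cofactor of human trophoblast, and KRT23 had 0 counts in every library, and KRT23 has 1 near-identical copy on an alternate contig, so its count is uncertain.

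Of 15 cytotrophoblast genes 11 were tested, with a median of 0.10, and PEG10 was called. PEG10, an imprinted retrotransposon-derived gene needed for the placenta, had 203 ± 0.879 CPM in 2-D and 220 ± 5.86 CPM in 3-D, a log2 fold change of 0.12 (SE 0.03, BH-adjusted p = 0.0411 by edgeR). ELF5, a trophoblast stem cell factor, had 1 count in all 4 libraries together.

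The syncytiotrophoblast list was the lowest of the 5 lineage lists, with a median of 0.0494 CPM per kilobase. Of its 21 genes 6 were tested and 0 were called by edgeR's quasi-likelihood test, while 1 had an unadjusted p below 0.05. GCM1, the factor that drives fusion, was at 0 in every library, as were CGB1, CGB2, INSL4 and LGALS16. CGB1 and CGB2 have 1 near-identical copy each, so their counts are uncertain. The 4 most abundant were SDC1, PAPPA, ERVFRD-1 and GH2, from 11.8 down to 0.510 CPM per kilobase.

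Of 12 extravillous trophoblast genes 7 were tested, with a median of 0.18. MMP2, a gelatinase, and TCF7L2, a Wnt pathway factor, were called, with log2 fold changes of 0.17 and 0.19 (SE 0.03 and 0.04, BH-adjusted p = 0.00728 and 0.00584 by edgeR). HLA-G, the defining antigen of these cells, had 1 count in all, but it has 7 near-identical copies on alternate contigs of hg38, so its count is uncertain.

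Of 15 amnion genes 9 were tested, 6 with a log2 fold change above 0 and 3 below, with a median of 0.22 and 1 called. BMP4, the ligand that induces amnion and trophoblast programs in culture, had 27.5 ± 0.789 CPM in 2-D and 32.5 ± 0.0824 CPM in 3-D, a log2 fold change of 0.24 (SE 0.06, BH-adjusted p = 0.0348 by edgeR). The values farthest from 0 were on the lower side. MSX1, a homeobox target of BMP, was at −0.81 (SE 0.49, BH-adjusted p = 0.382 by edgeR) and HEY1, a target of Notch, at −0.78 (SE 0.29, BH-adjusted p = 0.138 by edgeR), and for both the 2-D libraries lay above the 3-D libraries. The amnion factor ISL1 was not tested, with 18 and 11 counts in 2-D and 5 and 4 in 3-D, or 0.440 ± 0.117 CPM in 2-D and 0.233 ± 0.0142 CPM in 3-D (SD, n = 2 each), so 2-D lay above 3-D. At such low counts an SD of 2 libraries is a poor measure of the spread. VTCN1 had 1 to 4 counts in a library.

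Genes that respond to BMP were not called, with 9 of 10 tested, a median of 0.03 and 4 at an unadjusted p below 0.05 (edgeR's quasi-likelihood test). ID1, ID3, SMAD7 and HEY2, the 4 most abundant, had log2 fold changes of 0.11, −0.09, −0.08 and 0.06 (BH-adjusted p = 0.188, 0.550, 0.229 and 0.699 by edgeR). SMAD6, an inhibitor of the pathway, was the nearest to a call, with 16.9 ± 0.0717 CPM in 2-D and 13.9 ± 0.243 CPM in 3-D (SD, n = 2 each) and a log2 fold change of −0.28 (SE 0.08, BH-adjusted p = 0.0502 by edgeR). It was called lower in 6 of 14 alternatives, which were the non-legacy fit, library size only, no filter on low counts, at least 10 counts in every library, limma and the fit without 3-D replicate 2. YAP and TEAD set the trophectoderm program in the outer cells of the embryo. All 12 genes of the YAP and TEAD list were tested, 4 with a log2 fold change above 0 and 8 below, with a median of −0.015. The list also holds LATS1, LATS2, NF2, AMOTL2, CCN1 and CCN2, so its median does not measure the activity of YAP and TEAD. TEAD2 and AMOTL2 were called, with log2 fold changes of 0.19 and 0.14 (BH-adjusted p = 0.00170 and 0.0309 by edgeR). TEAD4, the member of the family tied to trophectoderm, was at 0.10 (BH-adjusted p = 0.192 by edgeR). YAP1 was at −0.08 (BH-adjusted p = 0.147 by edgeR), with the 2-D libraries above the 3-D libraries. CCN1 and CCN2 were at −0.010 and −0.015 (BH-adjusted p = 0.905 and 0.885 by edgeR).

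**Figure D4:**
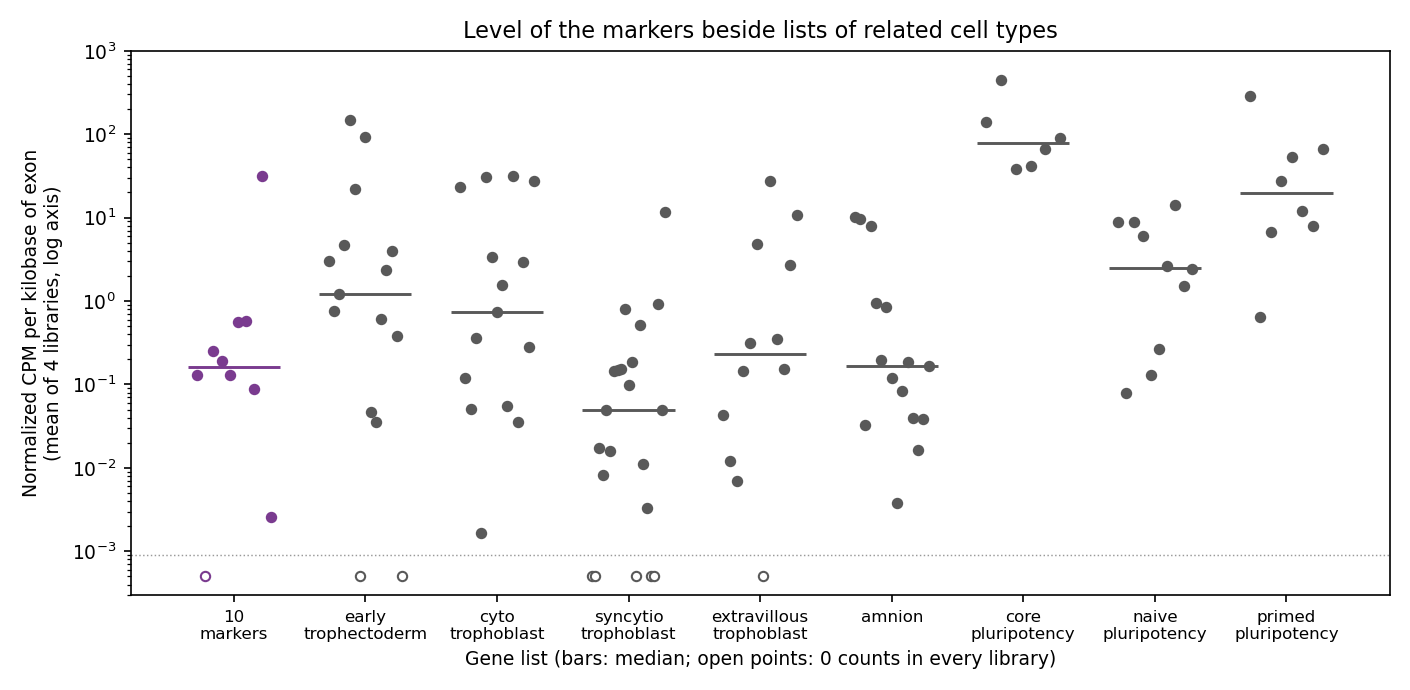
Normalized CPM per kilobase of exon (mean of 4 libraries, log axis) for each gene of the 10 markers, of 5 lists of related cell types and of 3 pluripotency lists (x axis), with a bar at each median and open points below the dotted line for 0 counts in every library. The median of the 10 markers is 0.160 and that of the syncytiotrophoblast list 0.0494, beside 79.0 for core, 2.52 for naive and 19.8 for primed pluripotency genes.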

How the data were processed

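Per the methods and labels, the authors depleted ribosomal RNA, sequenced paired ends, trimmed reads with Trim Galore 0.6.3, mapped them to hg38 with HISAT2 2.1.0 and counted them on GENCODE release 30 genes with featureCounts 1.6.4. The deposited counts are whole reads by gene and library, neither normalized nor pooled. The deposited normalized signal is each count divided by 1 DESeq2 size factor per library. The same table holds the authors' own comparison, which was not used. Strand and multimapping settings are not given in the sources used here.

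Of 60564 identifiers, 60295 matched GENCODE release 44, used for symbols, positions and exon length. Counts were tested with edgeR 4.0.16 in R 4.3.3 (TMM, filterByExpr with a minimum count of 10, legacy quasi-likelihood fit, condition alone, Benjamini-Hochberg adjustment). Standard errors are the log2 fold change over the square root of F, and 95% intervals use the test's degrees of freedom. Replicates of a group differed by more than sampling noise (chi-square over its degrees of freedom 2.27 in 2-D and 3.92 in 3-D). A near-identical copy covers at least 80% of the longest transcript at 98% identity (minimap2). Alternatives used DESeq2 1.42.0, limma 3.58.1 with a pseudocount of 1 and other settings. The quasi-likelihood test, the likelihood ratio test and DESeq2 were checked on simulated counts, and the other alternatives were not. The markers and lists were chosen with earlier results of these data known. Named are the 10 markers, the called genes of each list or, where none or more than 4 were called, its 4 most abundant per kilobase, and genes overlapping a marker or starting within 10000 bases of its start. Every other gene was named after its values were seen.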

Additional observations from a re-analysis of the deposited data

How the results depend on the processing

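Of the 10 markers, 8 could be tested, and for the 7 apart from TFAP2C fewer than 100 counts per library limited what could be seen. No marker was called lower under any alternative. HAND1 was called higher by edgeR's likelihood ratio test (log2 fold change 0.98), without a filter on low counts (0.98) and with at least 10 counts in every library (0.97), so the count of markers called higher was 1 in these 3 settings and 0 in the others, also without any 1 library (0 to 0). Signs turned for TFAP2C with library size only (−0.023), and on leaving out 1 library for GATA2 (−0.39 to 0.23, above 0 without replicate 2 of 2-D or of 3-D), GATA3 (−0.32 to 1.0, below 0 without 2-D replicate 1) and ENPEP (−0.25 to 0.037, above 0 without 3-D replicate 2). A fit without a library assumes that the remaining library of its group varies like the other group.

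Over all genes, 1024 were called higher and 758 lower. These numbers were 651 and 488 with the likelihood ratio test, 509 and 285 with DESeq2, 514 and 1879 with library size only, and 360 and 197 with DESeq2 without independent filtering. Without 1 library they ran from 560 to 1468 and from 414 to 1175. Of the 99 listed genes, 7 were called higher and 0 lower. The count higher was 3 with the likelihood ratio test, 3 with DESeq2, 2 with library size only and 1 with DESeq2 without independent filtering. The count lower was 1 (SMAD6) with the non-legacy fit, with at least 10 counts in every library and with limma on the deposited values, 2 (SMAD6 and SLC7A2) without a filter and 5 with library size only. Without 1 library they ran from 1 to 9 and from 0 to 3. The cause was not tested, other than the shift of all genes that library size alone brings.

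The labels give replicates 1 and 2 in both groups, with nothing that ties equal numbers together. Deviations of equally numbered libraries had a correlation across genes of −0.0079. With a replicate block 1223 genes were called higher and 944 lower, and 0 markers (HAND1 at a BH-adjusted p of 0.0712 by edgeR). With the block the listed genes called higher and lower stayed within 1.5 times of the reported counts.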

Other observations

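Relatives of the markers gave a comparison of which family members these cells used. Of 16 relatives 10 were tested, 0 were called by edgeR's quasi-likelihood test, and 4 had an unadjusted p below 0.05. The GATA factor closest to a call was GATA6, a factor of primitive endoderm that also appears in amnion and mesoderm, with 29 and 34 counts in 2-D and 48 and 27 in 3-D. Its log2 fold change was 1.0 (SE 0.28, BH-adjusted p = 0.0516 by edgeR), and its CPM were 0.973 ± 0.185 in 2-D and 1.92 ± 0.586 in 3-D (SD, n = 2 each). It was named after its values were seen. GATA4 had 158 and 150 counts in 2-D and 96 and 109 in 3-D. Per kilobase GATA4 stood at 1.14 CPM as the mean of the 4 libraries, beside 0.191 for GATA2 and 0.129 for GATA3.

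CDX4 had 211 and 212 counts in 2-D and 98 and 100 in 3-D, and a log2 fold change of −0.33 (SE 0.13, BH-adjusted p = 0.169 by edgeR). Per kilobase CDX4 stood at 3.56 CPM and CDX1 at 1.41, beside 0.129 for CDX2.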
